A study of Bos indicus with 8 samples.

Results

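The genes described here are 44 that license, fire and carry out DNA replication. They were chosen by gene symbol, and each is represented by the probe with the brightest mean signal over all arrays and channels. Of the 44, 37 had a probe under their symbol in the platform annotation, among 15229 genes named there. A filter on dim signal passed 35 of the 37, among 12328 genes tested. The 2 that did not pass were POLD1, above the background limit on 5 of 8 arrays in the FSH channel and 4 in the control channel, and POLE, above it on 0 of 8 in both. Another 5, ORC2 to ORC6, were listed only under older symbols and are described apart from the rest. RFC1 and GINS2 had neither and are not analysed here.

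Transcripts were measured in cumulus cells, which form the somatic coat of the oocyte. Cumulus-oocyte complexes (organism given as Bos indicus) came from slaughterhouse ovaries, from follicles of 3 to 6 mm. They were cultured for 6 h in 2 groups: with 0.5 µg/ml of recombinant human follicle-stimulating hormone (FSH), and without it as controls. Both groups received 3 mM adenosine, a nucleoside, in medium with gentamicin, 0.2 mM pyruvic acid, 1 µg/ml 17β-oestradiol and 10% serum of fetal calves, so the comparison asks what FSH does to cumulus transcripts when adenosine is present. The FSH group and the control group had 4 pools each. The labels give 10 as the number in a pool and no unit for it. An FSH pool and the control pool of the same number were hybridised together on 2 arrays of opposite dye orientation. The labels call the replicates biological but do not say whether paired pools shared ovaries.

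Before a cell copies its DNA, the origin recognition complex, CDC6 and CDT1 load the ring-shaped MCM2-7 helicase onto origins, and geminin (GMNN) blocks a further round of loading by binding CDT1. The kinase CDC7 with its activator DBF4, together with MCM10 and the GINS complex, turns the loaded helicase into a moving fork. Polymerases alpha, delta and epsilon copy the strands there, PCNA clamps the polymerases to DNA and RPA covers single strands. Cumulus and granulosa cells of growing follicles divide, and their cycle is known to respond to gonadotropins.

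All values are log2 ratios of FSH over control from the authors' normalized table, with the 2 dye orientations of a replicate averaged to 1 value (n = 4 replicates), unless stated otherwise. A ratio below 0 means a lower signal with FSH. Between 42.5% and 86.4% of all probes on an array exceeded the background limit in the FSH channel and between 33.9% and 84.0% in the control channel, with the lowest control shares, 33.9% and 46.3%, in replicate 3. FSH samples were labelled with Cy5 throughout one slide (4 arrays) and with Cy3 throughout the other, so slide and dye cannot be told apart. Of the 14 cumulus and granulosa markers, 13 passed the filter, among them FSHR, CYP19A1 and INHBA on 8 of 8 arrays in both channels. FOXL2 did not pass, at 5 of 8 in each.

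As a group the replication genes leaned to lower signal with FSH, and no single gene passed the adjusted test. Mean ratios were below 0 for 26 of 35 members (74.3%), where 49.4% of all genes tested were. The median over the members was -0.11, against 0.0023 over all genes tested. In all 4 replicates 10 members were lower (28.6%), where the background was 9.07%, and 1 was higher, where the background was 11.5%. The limma test with Benjamini-Hochberg adjustment over 32229 probes called 0 of 35 members, at a background of 0%, and their adjusted p ran from 0.332 to 0.985. At an unadjusted p under 0.05, 10 of 35 were lower (28.6%, background 6.04%) and 0 higher (background 6.64%). Of the 35 members, 27 exceeded the background limit on all 8 arrays in both channels. Among the 6767 genes of that class the background of the lower direction was 8.84%. Of the 27 members in it, 9 were lower at that threshold, 8 were lower in all 4 replicates (background 10.3%), and their median was -0.14.

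The lean was uneven between replicates. The median of the 35 members was -0.041, -0.28, -0.018 and -0.15 in replicates 1 to 4. Lower values were held by 19, 28, 21 and 27 members in those replicates, where the backgrounds over all genes were 46.7%, 48%, 48.3% and 48%. Replicates 2 and 4 therefore lay furthest from 0, and replicates 1 and 3 lay close to it. Without replicate 2 the median was -0.043 and 3 members were lower at an unadjusted p under 0.05 (background 4.33%). Without replicate 4 the median was -0.11 and 2 members were (background 3.74%). In a pooled sample, fewer cells of a type and less RNA per cell cannot be told apart.

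The ratios also depended on how the arrays were scaled. With background correction by normexp and loess normalization of the scanner values the members' median was -0.10, and the unadjusted p was under 0.05 for 8 with a lower and 1 with a higher mean (backgrounds 5.91% and 5.05%). With loess alone the median was -0.13. With arrays only centred on their medians after normexp it was 0.042, and at that p 0 members were lower and 3 were higher (backgrounds 0.827% and 9.89%). In that setting 0 members were lower in all 4 replicates (background 3.37%). That scaling moved the median of all genes tested to 0.05 and that of the genes above the limit on all arrays to 0.17. The members' median lay -0.0085 relative to all genes, so the lean was not seen against them, and -0.13 relative to the genes above the limit. That median is of all 35 members, of which 27 were above the limit on all arrays, as were 6767 of 12328 genes tested. Both comparisons are therefore between sets that differ in brightness. In this setting 15 of 35 members had a mean below 0 (background 31.2%). Below the median of the genes above the limit lay 25 of 35. With the authors' values both counts were 26 (background of lower means 49.4%). With median centring single genes lay nearer 0 as well. Among them RPA1 stood at -0.14, POLD2 at -0.25, PRIM2 at -0.17 and RFC3 at -0.11. MCM3 stood at -0.092, MCM4 at -0.022, MCM5 at -0.11 and MCM6 at -0.14. These values are read against 0, while the median of the genes above the limit had moved to 0.17.

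**Figure D1:**
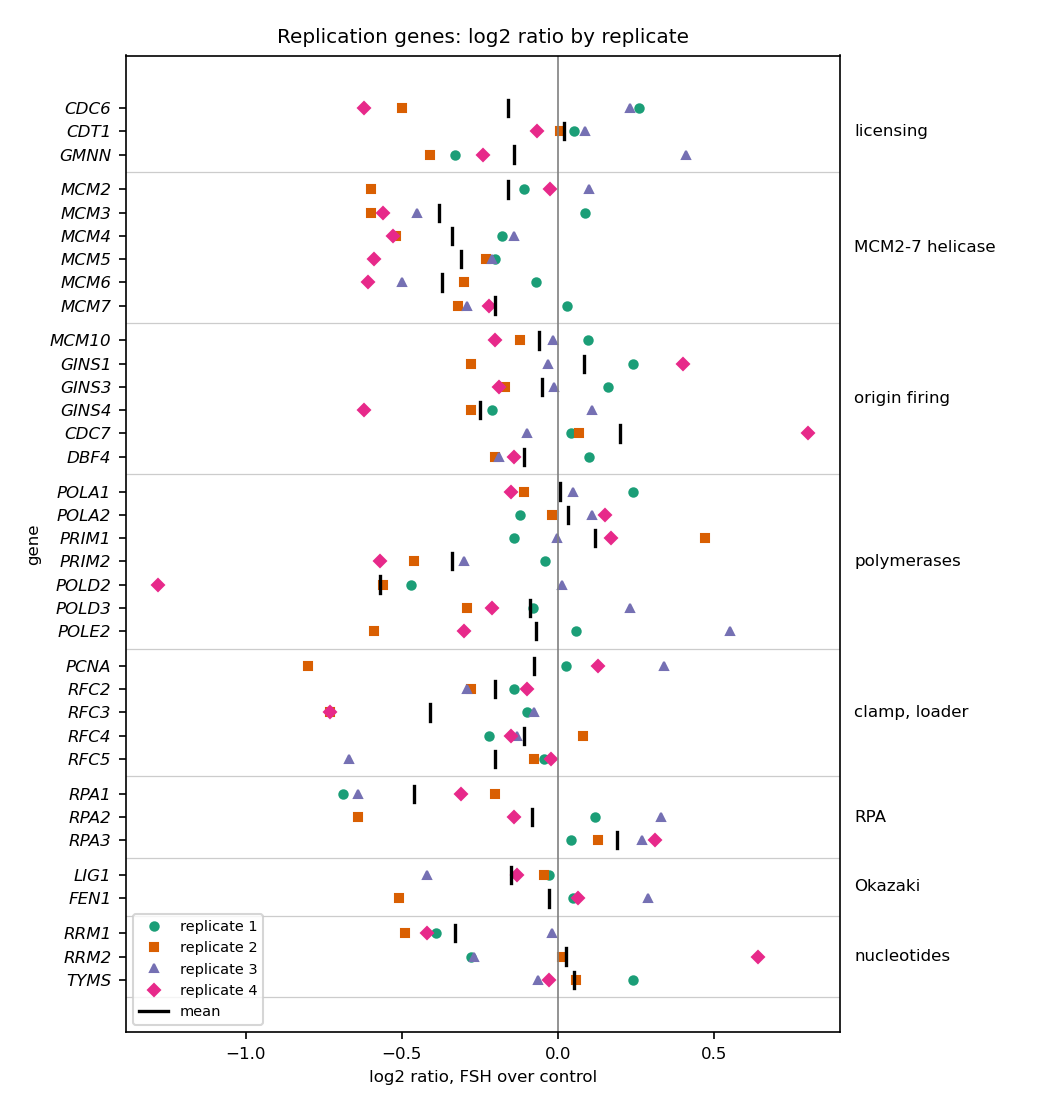
Log2 ratio of FSH over control (horizontal axis) for the 35 tested members (vertical axis), grouped by role, with 1 symbol per replicate (mean of 2 arrays) and a bar at the mean. All 6 MCM2-7 bars lie below 0, replicate 2 (squares) is low for PCNA at -0.80, and replicate 4 (diamonds) is high for CDC7 at 0.80.

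The 6 subunits of the MCM2-7 helicase had the lowest median of the role groups, -0.32. All 6 had a mean below 0 (background 49.4%), and for 4 the unadjusted p was under 0.05 (background of lower means 6.04%). The group median was -0.22 with normexp and loess and -0.057 with median centring, where MCM2 at 0.19 and MCM7 at 0.013 turned above 0. MCM4, a subunit of the catalytic core, stood at -0.18, -0.52, -0.14 and -0.53 in replicates 1 to 4. It was below 0 on all 8 arrays, and replicates 2 and 4 were lower than the other two. Its mean was -0.34 ± 0.21 (SD, n = 4; adjusted p = 0.373), with a 95% interval of -0.59 to -0.094.

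MCM6, which pairs with MCM4 in the core, stood at -0.071, -0.30, -0.50 and -0.61. Its mean was -0.37 ± 0.24 (SD, n = 4; adjusted p = 0.372), and 7 of 8 arrays were below 0. MCM7, the remaining core subunit, stood at 0.029, -0.32, -0.29 and -0.22, with a mean of -0.20 ± 0.16 (adjusted p = 0.499). Replicate 1 was the value nearest 0 or above it for both genes.

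MCM3, the subunit through which the ring meets its loader, stood at 0.088, -0.60, -0.45 and -0.56. Replicate 1 lay above 0 on both of its arrays and the other 3 below 0 on all of theirs, for a mean of -0.38 ± 0.32 (SD, n = 4; adjusted p = 0.412). Its partner MCM5 stood at -0.20, -0.23, -0.21 and -0.59, below 0 in all 4 replicates. The mean of MCM5 was -0.31 ± 0.19 (adjusted p = 0.391), but it averaged -0.050 ± 0.30 where FSH was in Cy5 and -0.56 ± 0.19 where FSH was in Cy3. MCM2, which forms the gate of the ring with MCM5, stood at -0.11, -0.60, 0.10 and -0.024, so its mean of -0.16 ± 0.31 (adjusted p = 0.709) rested on replicate 2. The 2 dimmer probes of MCM2 averaged -0.0084 and -0.10.

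Signals of the single pools show on which side the differences lay. They come from the scanner values after loess and quantile normalization of average intensity, and are compared between pools, gene by gene. MCM3 had a log2 signal of 8.87, 8.55, 8.31 and 8.28 in FSH pools 1 to 4, against 8.88, 8.89, 8.70 and 8.72 in control pools 1 to 4. MCM6 had 8.44, 8.34, 7.95 and 7.89 in FSH pools, against 8.55, 8.53, 8.36 and 8.50 in control pools. For both genes the control pools lay close together, and the FSH pools spread downwards from them with overlap between groups. MCM4 had 9.20, 8.85, 9.30 and 9.0 in FSH pools, against 9.31, 9.08, 9.60 and 9.33 in control pools, lower in each pair while pairs differed in level.

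**Figure D2:**
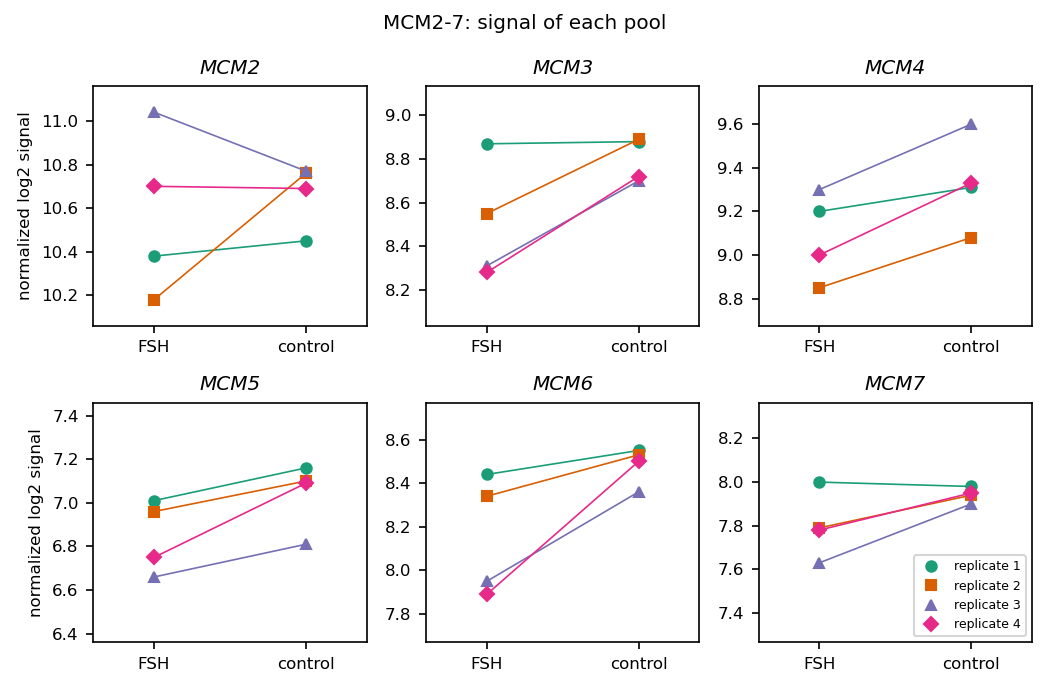
Normalized log2 signal (vertical axis, own range per panel, equal span) of the 6 MCM2-7 genes in 4 FSH pools (left) and 4 control pools (right), with lines joining pools of 1 replicate number. MCM3 runs from 8.28 to 8.87 in FSH pools and from 8.70 to 8.89 in control pools, and the MCM2 signal of replicate 3 is higher in the FSH pool, at 11.04, than in the control pool, at 10.77.

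Of the licensing genes, 3 could be tested under their own symbols, and 0 had the same sign in all 4 replicates. CDC6, the ATPase that loads the helicase, stood at 0.26, -0.50, 0.23 and -0.62. Replicates 1 and 3 were above 0 and replicates 2 and 4 below it, for a mean of -0.16 ± 0.47 (SD, n = 4; adjusted p = 0.792) and a 95% interval of -0.58 to 0.26. The 2 arrays of each replicate had the same sign for CDC6, with 0.21 and 0.31 in replicate 1 and -0.76 and -0.47 in replicate 4. GMNN, the loading inhibitor, stood at -0.33, -0.41, 0.41 and -0.24, and CDT1, which it binds, lay between -0.067 and 0.086.

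The origin recognition complex marks the sites where loading starts. Its subunits carry the symbols ORC2L to ORC6L in the platform annotation, which are the older names of ORC2 to ORC6. By their brightest probes ORC2L averaged 0.10 ± 0.20 (SD, n = 4), ORC3L -0.046 ± 0.39 and ORC4L 0.044 ± 0.12. ORC5L averaged -0.35 ± 0.30 and ORC6L -0.31 ± 0.19, at unadjusted p of 0.031 and 0.0176 in limma. Their adjusted p was 0.421 and 0.391. For ORC6L the mean was -0.77 where FSH was in Cy5 and 0.15 where it was in Cy3, with opposite signs. The other 2 tested probes of ORC6L stood at 0.20 and 0.30, on the other side of 0, so the probes of this gene disagreed. Adding these 5 genes left the members' median at -0.11.

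Genes that turn the loaded helicase into a fork had no shared direction. Of 6 tested, 4 had a mean below 0 (background 49.4%), 0 of them in all 4 replicates (background 9.07%). GINS4, a subunit of the GINS complex, stood at -0.21, -0.28, 0.11 and -0.62, for a mean of -0.25 ± 0.30 (SD, n = 4; adjusted p = 0.538). GINS1 averaged 0.083 ± 0.30 and GINS3 -0.052 ± 0.16. CDC7 had the highest mean of all 35 members, 0.20 ± 0.41, set by replicate 4 at 0.80 while the other 3 lay between -0.10 and 0.068. Its next brightest probe stood at 0.26, 0.36, 0.15 and 0.25, above 0 in all 4 replicates (0.26 ± 0.087). With normexp and loess that probe averaged 0.063. The third tested probe of CDC7 averaged -0.047 ± 0.20 and was below 0 in 3 of 4 replicates. DBF4, the activator of CDC7, averaged -0.11 ± 0.14 and MCM10 -0.060 ± 0.13.

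Among the polymerase genes 2 of 7 tested were lower at an unadjusted p under 0.05 (background 6.04%). PRIM2, the large subunit of primase, stood at -0.041, -0.46, -0.30 and -0.57, below 0 in all 4 replicates, with a mean of -0.34 ± 0.23 (SD, n = 4; adjusted p = 0.388). PRIM1, the catalytic primase subunit, stood at -0.14, 0.47, -0.0034 and 0.17, with a mean of 0.12 ± 0.26. The primase subunits thus lay on opposite sides of 0 in replicates 2 and 4, and the difference between them was not tested.

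POLD2, an accessory subunit of polymerase delta, had the lowest mean of all members, -0.57 ± 0.53 (SD, n = 4; adjusted p = 0.411). It stood at -0.47, -0.56, 0.014 and -1.28, so replicate 4 was far lower than the rest and replicate 3 lay at 0. Its pool signals were 8.78, 8.55, 7.74 and 7.71 with FSH, against 9.10, 8.97, 7.81 and 8.75 in controls, and control pool 3 fell among the FSH pools. The 2 dimmer probes of POLD2 averaged 0.018 and 0.14, so the value of the brightest probe was not shared by the others. POLA1, POLA2, POLD3 and POLE2 averaged between -0.088 and 0.032.

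All 5 tested genes of the clamp and its loader had means below 0 (background 49.4%), but the clamp itself varied widely. PCNA stood at 0.025, -0.80, 0.34 and 0.13, for a mean of -0.076 ± 0.50 (SD, n = 4; adjusted p = 0.92). Its 4 probes shared this order: replicate 2 was the lowest on each, between -0.80 and -0.63, and replicate 3 the highest, between 0.34 and 0.76. The dimmer probes of PCNA averaged -0.00041, 0.019 and -0.24. Both arrays of replicate 2 were low for the brightest probe, at -0.95 and -0.66. With median centring PCNA stood at 0.26 and RFC2 at 0.15. RFC4 and RFC5 also turned above 0 in that setting, and RFC3 stayed below it at -0.11. Pool signals of PCNA were 12.15, 11.48, 12.92 and 12.47 with FSH, against 12.19, 12.28, 12.58 and 12.34 in controls, so the spread was wider among FSH pools.

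RFC3, a subunit of the loader, stood at -0.10, -0.73, -0.078 and -0.73, with a mean of -0.41 ± 0.37 (SD, n = 4; adjusted p = 0.42). RFC2 stood at -0.14, -0.28, -0.29 and -0.10, the narrowest spread among members below 0 in all replicates, with a mean of -0.20 ± 0.10 (adjusted p = 0.445). It averaged -0.34 where FSH was in Cy5 and -0.073 where it was in Cy3, and stood at 0.15 with median centring. RFC5 averaged -0.20 ± 0.31 and was set by replicate 3, at -0.67. RFC4 averaged -0.11 ± 0.13.

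The single-strand binding complex RPA had members at both ends of the range. RPA1, its large DNA-binding subunit, had the lowest p of all members. It stood at -0.69, -0.20, -0.64 and -0.31, below 0 on all 8 arrays, with a mean of -0.46 ± 0.24 (SD, n = 4; adjusted p = 0.332) and a 95% interval of -0.73 to -0.20. Signals of RPA1 were 8.50, 8.54, 8.52 and 8.74 in FSH pools, against 8.81, 8.74, 9.14 and 8.97 in control pools, so the groups met at 8.74. RPA2 averaged -0.082 ± 0.42.

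RPA3, the small subunit, was the one member above 0 in all 4 replicates. It stood at 0.041, 0.13, 0.27 and 0.31, with a mean of 0.19 ± 0.12 (SD, n = 4; adjusted p = 0.492). With normexp and loess its mean was 0.050, and 2 of 4 replicates were below 0. RPA1 and RPA3 are parts of 1 complex, and their values lay on opposite sides of 0 in every replicate in the authors' table.

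Genes of Okazaki fragment processing lay near 0. LIG1, the ligase that seals the fragments, stood at -0.030, -0.045, -0.42 and -0.13, with a mean of -0.15 ± 0.18 (SD, n = 4; adjusted p = 0.61). It was the 1 member of 35 whose FSH pools all lay below all control pools, at 6.69 to 6.73 against 6.75 to 7.08. Of all genes 2.08% did so, so the share of members was close to the background. LIG1 had a mean signal of 103, above the limit on 7 of 8 arrays for FSH and 8 for control. FEN1, the nuclease that trims the fragments, averaged -0.027 ± 0.34.

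In the nucleotide supply group, the large and small subunits of ribonucleotide reductase differed in pattern. RRM1 stood at -0.39, -0.49, -0.018 and -0.42, with a mean of -0.33 ± 0.21 (SD, n = 4; adjusted p = 0.391). It averaged -0.50 on the slide with FSH in Cy5 and -0.16 on the other, and stood at 0.078 with median centring. RRM2, the subunit that limits activity in S phase, stood at -0.28, 0.013, -0.27 and 0.64, with a mean of 0.027 ± 0.43. TYMS, which makes thymidylate, averaged 0.052 ± 0.14. By their brightest probes, neither RRM2 nor TYMS had the same sign in all 4 replicates. A dimmer RRM2 probe was above 0 in all 4, at 0.20 ± 0.17, but averaged -0.02 with normexp and loess. The other RRM2 probes averaged -0.036 and 0.043.

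The 18 members outside the 17 chosen by rank or role averaged between -0.20 and 0.20, 10 below and 8 above 0, and their adjusted p lay between 0.617 and 0.985. Of the 25 other tested probes of members with several, 17 had the sign of the brightest probe and 8 the opposite sign. Over all 35 members 13 had a mean within 0.1 of 0, and for 23 the SD exceeded the size of the mean. Replicate 2 held the lowest value of 12 members and replicate 4 of another 12, where 21.4% and 26.9% of all genes had theirs there. The 8 members FEN1, GMNN, MCM2, PCNA, POLD3, POLE2, RPA2 and RRM1 were lowest in replicate 2 and highest in replicate 3, an order that 10.1% of all genes had.

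Both slides gave a members' median below 0. It was -0.14 on the slide with FSH in Cy5, with 26 of 35 lower (background 50%). Where FSH was in Cy3 it was -0.12, with 24 lower (background 49.4%). On both slides 20 members were lower (background 29.7%), and 10 had opposite signs (background 40%), among them PCNA at -0.23 and 0.075 and FEN1 at -0.22 and 0.16. On all 8 arrays 2 of 35 were lower (5.71%, background 3.15%), namely MCM4 and RPA1. In a limma fit of the 8 single arrays with the replicate block, 0 members passed while 2.57% of all genes did, and RPA1 had an adjusted p of 0.0511. At an unadjusted p under 0.05, 9 members were lower in that fit (background 8.76%). That fit counts the 2 arrays of a replicate, which hold the same RNA, as separate values joined by a correlation of 0.29. With a dye term added to this limma fit the correlation was 0.51. There 0 members and 1.8% of all genes passed, and RPA1 had an adjusted p of 0.0767.

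**Figure D3:**
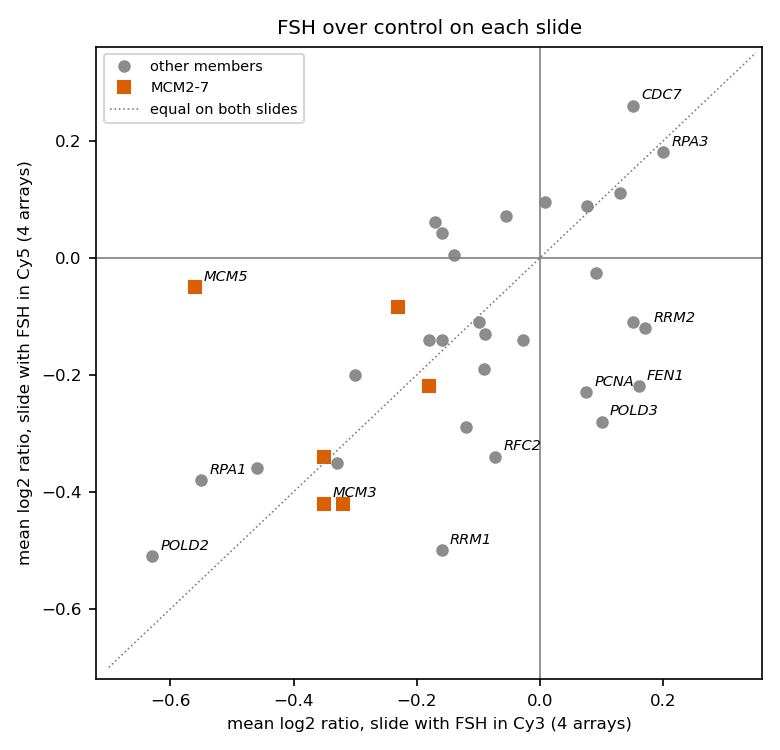
Mean log2 ratio of each tested member over the 4 arrays with FSH in Cy5 (vertical axis) against the 4 arrays with FSH in Cy3 (horizontal axis); squares are MCM2-7 and the dotted line marks equal values. POLD2 at -0.51 and -0.63 and RPA1 at -0.38 and -0.55 lie low on both slides, and MCM5 lies low on the slide with FSH in Cy3 alone.

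Other genes of replication and S phase leaned less by their median over both slides. Of 67 in this list, 56 had a probe under their symbol and 51 were tested. Their median was -0.074, and 32 means were below 0 (62.7%, background 49.4%). In limma 0 passed after adjustment (background 0%). The unadjusted p was under 0.05 for 6 lower means (background 6.04%) and 1 higher mean (background 6.64%). TK1, the thymidine kinase of dividing cells, stood at -0.32, -0.60, -0.27 and -0.43, below 0 on all 8 arrays, with a mean of -0.41 ± 0.15 (SD, n = 4; adjusted p = 0.316). CHAF1A, a chaperone that lays histones on new DNA, averaged -0.30 ± 0.15 (adjusted p = 0.373), and TOP2A, which untangles copied DNA, -0.40 ± 0.37 (adjusted p = 0.424). RNASEH2A averaged -0.46 ± 0.49, the largest size in the list. POLE4, a small subunit of polymerase epsilon, was on the other side, at 0.40 ± 0.38 and above 0 in all 4 replicates (adjusted p = 0.428).

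Mitosis genes lay further below 0 than the replication genes. Of 26 tested, 24 had a mean below 0 (background 49.4%), 13 were lower in all 4 replicates (background 9.07%), and the median was -0.27. With median centring the median was -0.019. At an unadjusted p under 0.05, 11 were lower (background 6.04%) and 0 higher (background 6.64%), and the limma test called 0 after adjustment. CDC20, which activates the anaphase-promoting complex, averaged -0.45 ± 0.085 (SD, n = 4; adjusted p = 0.275). NUSAP1, a spindle protein, averaged -0.47 ± 0.14, CENPE -0.57 ± 0.24 and PRC1, which bundles the central spindle, -0.66 ± 0.41. The list medians of replicates 1 to 4 were -0.072, -0.41, -0.16 and -0.39, so replicates 2 and 4 were the lowest here too. No test of the difference between the lists was run.

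Markers of cell types moved as follows beside these values, and their part in the replication result was not tested. Cumulus and granulosa markers had means below 0 for 13 of 13 tested (background 49.4%). Their median was -0.40, and the replicate medians were -0.032, -0.26, -0.36 and -0.94. Their summed signal ran from 33290 to 52900 in FSH pools and from 60820 to 68670 in control pools. INHBA, INHA and FST, with mean signals of 20100, 14300 and 10500, held most of it. All FSH pools lay below all control pools for 3 of the 13 markers, INHBA, STAR and GATA4 (background 2.08%), but not for INHA or FST. INHBA, a subunit of activin and inhibin, averaged -0.91 ± 0.47 (SD, n = 4; adjusted p = 0.284), STAR -0.60 ± 0.28, GATA4 -0.68 ± 0.43 and CYP11A1 -0.44 ± 0.45.

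Oocyte markers had means below 0 for 18 of 24 tested (background 49.4%), with a median of -0.11. Their summed signal ran from 10080 to 14250 in FSH pools and from 11650 to 17670 in control pools, but CNOT7 and RNF114, with mean signals of 5430 and 5630, held most of it. Whether CNOT7 and RNF114 report oocyte RNA in these pools was not tested. The other 22 markers had mean signals of 72.9 to 234. Their sums were 2374, 2410, 2327 and 2370 in FSH pools 1 to 4, against 2352, 2400, 3983 and 2762 in control pools 1 to 4, so control pools 3 and 4 stood above the rest. The replicate medians were 0.028, 0.021, -0.30 and -0.088, so oocyte markers lay lowest in replicate 3. Control pool 3 exceeded control pools 1 and 2 by over 0.5 for 9 of the 24 oocyte markers, CNOT7 among them. The same held for 3 of the 35 replication genes (GINS1, CDC7 and RRM2) and for 10.9% of all genes. BTG4, an oocyte regulator of mRNA decay, averaged -1.17 ± 1.49. DPPA3 averaged -1.10 ± 1.21 and GDF9 -0.43 ± 0.14, but both were above background on 2 of 8 arrays for FSH and 6 for control. RNF114 averaged -0.45 ± 0.26 and DAZL 0.25 ± 0.17. Without replicates 3 and 4, the members' median was -0.18 and that of MCM2-7 -0.23. Whether oocyte RNA bears on the values of the replication genes was not tested.

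Lists of other cell types had medians nearer 0. Immune markers had a median of 0.0075 over 7 of 10 tested, with a summed signal of 884.3 to 1649 in FSH pools and 922.2 to 1955 in control pools. The macrophage genes ITGAM and CSF1R were above background on 0 of 8 arrays in either channel. CD68 was above it on 6 arrays for FSH and 5 for control, and CD14 on 5 and 2. PTPRC, a marker of white blood cells, was above it on 8 of 8 in both, with log2 signals of 9.09, 8.28, 9.64 and 10.0 in FSH pools, against 8.86, 8.46, 10.46 and 9.88 in control pools. Pools 3 and 4 were thus the highest for PTPRC in both groups. LYZ averaged 0.46 ± 0.46 and CD74 0.18 ± 0.050, both above 0 in all 4 replicates, while CD3D averaged -0.15 ± 0.20 and CD3E 0.049 ± 0.18. Theca, stroma and endothelium markers had a median of -0.065 over 12 of 14 tested and sums of 9784 to 19380 in FSH pools and 11110 to 21180 in control pools, and they differed in sign. DCN averaged 0.32 ± 0.16 and was above 0 in all 4 replicates, and COL3A1 averaged -0.42 ± 0.30, COL1A1 -0.18 ± 0.25 and MCAM -0.58 ± 0.93. Red blood cell markers had a median of 0.054 over 3 tested and sums of 348.9 to 406.5 in FSH pools and 354.0 to 406.7 in control pools, with HBA at -0.20 ± 0.28, AHSP at 0.10 ± 0.25 and SLC4A1 at 0.054 ± 0.064.

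**Figure D4:**
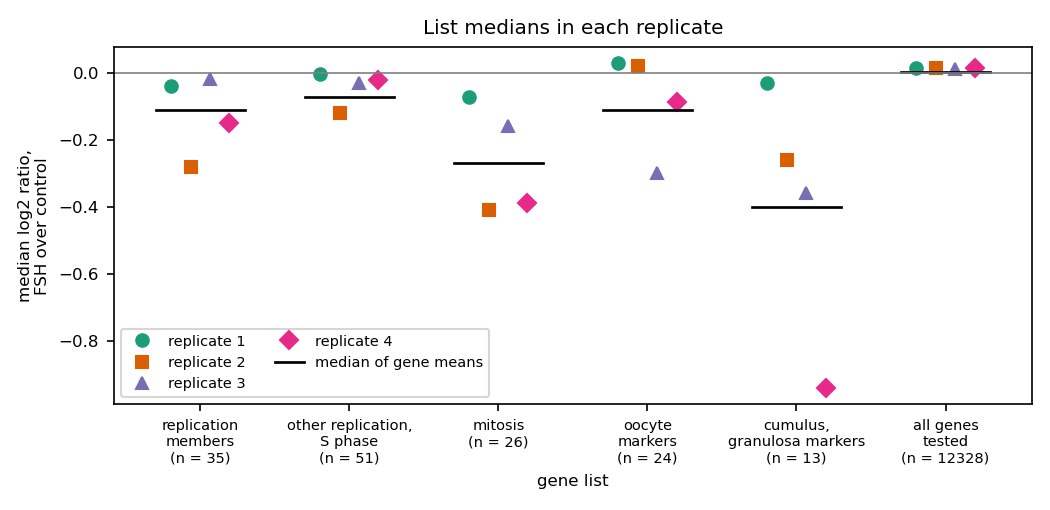
Median log2 ratio of FSH over control (vertical axis) in each replicate (symbols) for 6 gene lists (horizontal axis), with a bar at the median of the gene means. The replication members are lowest in replicate 2 at -0.28, the oocyte markers in replicate 3 at -0.30, and the cumulus and granulosa markers in replicate 4 at -0.94.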

How the data were processed

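Bovine 2-colour arrays were used, 8 on 2 slides, with 43794 probes. The deposited series matrix holds a log2 ratio per array. The authors' other table holds log2 Cy5 over Cy3, and the 2 tables matched to within 5e-06 after the 4 arrays with FSH in Cy3 were turned. The matrix therefore runs as FSH over control, which its correlation with the scanner log ratios bore out (r from 0.454 to 0.768 across probes). Its columns are centred near 0 (medians from -0.0038 to 0.018). The authors' background correction, normalization and genome build are not given in the sources used here. The deposited scanner files hold spot intensity and local background per channel on a linear scale.

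The background limit of an array and channel was set 2 SD above the mean of 153 negative controls. Probes above it (geometric mean of a replicate's 2 arrays) in 3 or more of the 4 FSH samples, or of the 4 control samples, were kept, 32229 in all. The platform annotation, which can be old, gave 1 symbol for 21790 probes and none for 22004. Per replicate, both arrays were averaged, and limma 3.58.1 in R 4.3.3 (lmFit with an intercept, eBayes, Benjamini-Hochberg at 0.05) was fitted on all kept probes. The spread between these 4 replicates enters p, combined by eBayes with a variance pooled over all kept probes. The spread between a replicate's 2 arrays does not enter it. The intervals given for single genes use the same combined variance, so they do not follow from the printed SD alone. For CDT1 the SD was 0.066 and the standard error in the fit 0.077. The replicate numbers pair pools by shared arrays, and each ratio already holds the pairing. On simulated data of 32229 probes, FSH against control, the fit called 6% of changes of 0.5, 53.7% of 1 and 87.9% of 2 on the log2 scale, with 3 false calls. Scanner values were also normalized with normexp (offset 50) and loess, control spots at weight 0, as an alternative and for pool signals; other alternatives are in the closing section.

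Members, lists and tests were chosen with earlier results of these data known. Named genes are MCM2-7, PCNA, the 12 members with the lowest p and the largest mean of each role group, and in other lists the 4 lowest p and the largest mean; further members and markers were named after their values were seen. List sums add the pool signals of different probes. No sequence or coordinate is printed. The number of arrays limits the precision.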

Additional observations from a re-analysis of the deposited data

Results flagged for a closer look

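The 4 replicate values of each of the 35 tested members, and the medians of 2 lists, were screened for a replicate far from the others, and 2 of these 37 groups were picked out. About 1 in 20 groups is picked out by chance. For MCM5, replicate 4 stood at -0.59 while the other 3 lay between -0.23 and -0.20, and its 2 arrays read -0.43 and -0.74. For RFC5, replicate 3 stood at -0.67 while the other 3 lay between -0.078 and -0.023, and its 2 arrays read -0.76 and -0.58. The 3 dimmer probes of RFC5 stood at -0.21, -0.25 and 0.12 in that replicate.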

How the results depend on the processing

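With the authors' values 0 members passed limma, and 0 passed under any of the 16 alternatives fitted for this count. At an unadjusted p under 0.05, 10 members were lower (6.04% of all genes) and 0 higher (6.64%). Median centring without loess gave 0 lower (0.827% of all genes) and 3 higher (9.89%). It gave 0 lower in all 4 replicates (3.37%) and a members' median of 0.042. In that setting the other replication and S phase genes had a median of 0.078 and 0 lower, and MCM2 (0.19), MCM7 (0.013), PCNA (0.26), RFC2 (0.15) and RRM1 (0.078) turned. Normexp and loess gave 8 lower (5.91% of all genes) and 1 higher (5.05%). In the other list it gave 3 of 51 lower, near the share of all genes. Without replicates 3 and 4, 6 members were lower at that p (5.91% of all genes) and 16 lower in all remaining replicates (24.7%). With normexp and loess as well, chosen after seeing the data, these were 5 (5.56%) and 22 (26.6%), with 3 in the other list and RPA3 at -0.043. Leaving out each replicate in turn gave 2 to 10 members at that p (3.74% to 7.79% of all genes), 10 to 15 lower in all remaining replicates (13% to 16.1%), medians of -0.17 to -0.043, and in the other list 2 to 6 lower and medians of -0.068 to -0.033. PCNA ranged from -0.22 to 0.17 when single replicates were left out, above 0 without replicate 2, and stood at 0.075 where FSH was in Cy3. The other list's median was -0.13 where FSH was in Cy5. With the replicate block, 9 members were lower at that p (8.76% of all genes) and the median was -0.11. The block changed no call of a member. The cause of these changes was not tested. The other values of the 17 members chosen by rank or role kept their sign. Of the other 18 members, 10 turned with median centring, 4 with normexp and loess (GINS1, POLA1, POLA2 and FEN1), 6 where FSH was in Cy5 alone and 3 where it was in Cy3 alone. Single genes of the other lists were not followed through these settings. Signal near background limits the 8 of 35 members that missed the limit on some array: CDC6, CDT1, MCM5, MCM10, GINS3, POLA2, LIG1 and FEN1.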
